A study of Mus musculus with 9 samples.

Results

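Fibronectin, tenascin-C, periostin, the thrombospondins and their matrix companions were examined as a group of 10 genes, Fn1, Tnc, Postn, Sparc, Thbs1, Thbs2, Thbs3, Vcan, Tgfbi and Mgp, in mouse pancreatic stellate cells. They were taken by symbol from a table of 17156 genes, in which each had 1 entry, and all 10 passed the filter on low counts that kept 13613 genes. Pancreatic stellate cells are fibroblast-like cells of the pancreas that lay down matrix in injury and cancer. The cells were wild-type C57BL/6J lines, cultured for 4 days in 1 of 3 media with 3 libraries each. In CM-JAKi the medium was conditioned by tumour organoids and carried 500 nM AZD1480, a JAK inhibitor. In CM it was conditioned by tumour organoids without the inhibitor. In MG-CM, the control, it was DMEM with 5% FBS, which one label field describes as Matrigel-conditioned or control medium, and how much FBS the CM held is not given separately. Replicate 1 of every medium used the line PSC4, replicate 2 the line PSC5-I and replicate 3 the line PSC5-II, and each replicate number had its own source of conditioned medium, so line and source cannot be told apart. Setting CM beside MG-CM shows how the stellate cells differ between tumour organoid medium and this control. The media may also differ in FBS or Matrigel, and these and the organoids cannot be told apart. Setting CM-JAKi beside CM shows which readouts in tumour organoid medium differ when JAK kinases are inhibited.

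These proteins are secreted into the matrix, and several of them shape how cells attach and respond to growth factors more than they bear load. Fibronectin is a large adhesive glycoprotein that cells pull into fibrils through integrins, while tenascin-C, periostin, SPARC and the thrombospondins are matricellular proteins, produced in abundance in development, wounds and the stroma of tumours. Versican is a large chondroitin sulphate proteoglycan that binds hyaluronan, TGFBI is a fasciclin-domain protein related to periostin, and MGP is a vitamin K-dependent inhibitor of calcification. JAK kinases carry the signal of cytokine receptors such as those of the interleukin-6 family to STAT transcription factors.

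The promoters of Tnc and Postn, which had the largest log2 differences of the 10 genes in CM against MG-CM and in CM-JAKi against CM, are shown because these differences ran in opposite directions. The sequences are those of RefSeq on GRCm38.p6, where 7 of the 10 genes had a match with 9 start windows in all. Each window is the 250 bases that end just before an annotated start, printed 5′ to 3′ on the gene's strand, and capitals mark the letters TATAAA.
Tnc, chr4:64047016-64047265, minus strand: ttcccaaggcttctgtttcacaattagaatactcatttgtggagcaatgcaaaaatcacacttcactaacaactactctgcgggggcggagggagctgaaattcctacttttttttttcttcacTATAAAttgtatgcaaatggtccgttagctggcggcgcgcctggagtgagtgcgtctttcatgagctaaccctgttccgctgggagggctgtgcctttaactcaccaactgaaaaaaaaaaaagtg
Postn, chr3:54360857-54361106, plus strand: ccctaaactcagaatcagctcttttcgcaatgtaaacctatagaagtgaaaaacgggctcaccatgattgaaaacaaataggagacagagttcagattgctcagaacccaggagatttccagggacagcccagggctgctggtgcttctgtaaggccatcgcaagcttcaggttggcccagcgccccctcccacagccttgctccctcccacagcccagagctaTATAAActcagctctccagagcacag
TATAAA lies 26 bases before the annotated start in the Postn window and 126 bases before it in the Tnc window, and they also occur in the Thbs2 window. Read on both strands, these letters occur in 12.4% of 32851 mouse windows of this length. Neither TTCNNNGAA, the letters of a STAT site, nor TGANTCA, those of an AP-1 site, occurs on either strand in any of the 9 windows, against 7.02% and 6.75% of all windows. A match or its lack describes these windows and no more.

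Libraries held 25625806 to 32466018 counts, with 15678 to 15944 genes detected and 1.53% to 1.90% of counts from mitochondrial transcripts. Levels are given as CPM, counts per library total after TMM scaling in the usual units, and within 1 gene they can be compared between libraries. Replicate numbers are separate cultures of named lines, so p-values of the main fit measure the spread between lines, cultures and medium sources together. Where the replicate number is entered as a block, differences between lines and sources that all media share are taken out of that spread. In the test of PSC4 against PSC5 the spread comes from the PSC5 cultures alone. Of 17 genes of the JAK-STAT response, 16 fell in CM-JAKi against CM by edgeR's quasi-likelihood test with Benjamini-Hochberg adjustment over all genes kept (adjusted p under 0.05). The feedback inhibitor Socs3 averaged 32.6 ± 2.27 CPM in CM-JAKi and 137 ± 35.0 CPM in CM (SD, n = 3 each), with an adjusted p of 0.00035. Of 11 stellate markers, which include the collagen I genes, 10 were in the table used, and their summed level ranged over 7219 to 7791 CPM in CM-JAKi, 3321 to 5261 CPM in CM and 5853 to 6451 CPM in MG-CM. Gfap, a marker of quiescent stellate cells, was under 1 CPM in every library. Of 8 epithelial markers measured, Epcam, Cdh1 and Cldn4 were likewise under 1 CPM in every library and 5 passed the filter, and the 8 summed to 29.4 to 44.4 CPM in CM-JAKi, 32.2 to 36.8 CPM in CM and 35.0 to 50.6 CPM in MG-CM. Krt19 averaged 14.5 ± 10.3 CPM in CM-JAKi and 3.08 ± 3.04 CPM in CM, and Muc1 3.76 ± 2.55 CPM in CM-JAKi and 13.4 ± 2.71 CPM in CM (SD, n = 3 each). The 7 leukocyte markers measured summed to 3.30 to 4.53 CPM in CM-JAKi, 3.43 to 3.96 CPM in CM and 3.18 to 4.09 CPM in MG-CM, with Ptprc under 1 CPM in every library.

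**Figure D1:**
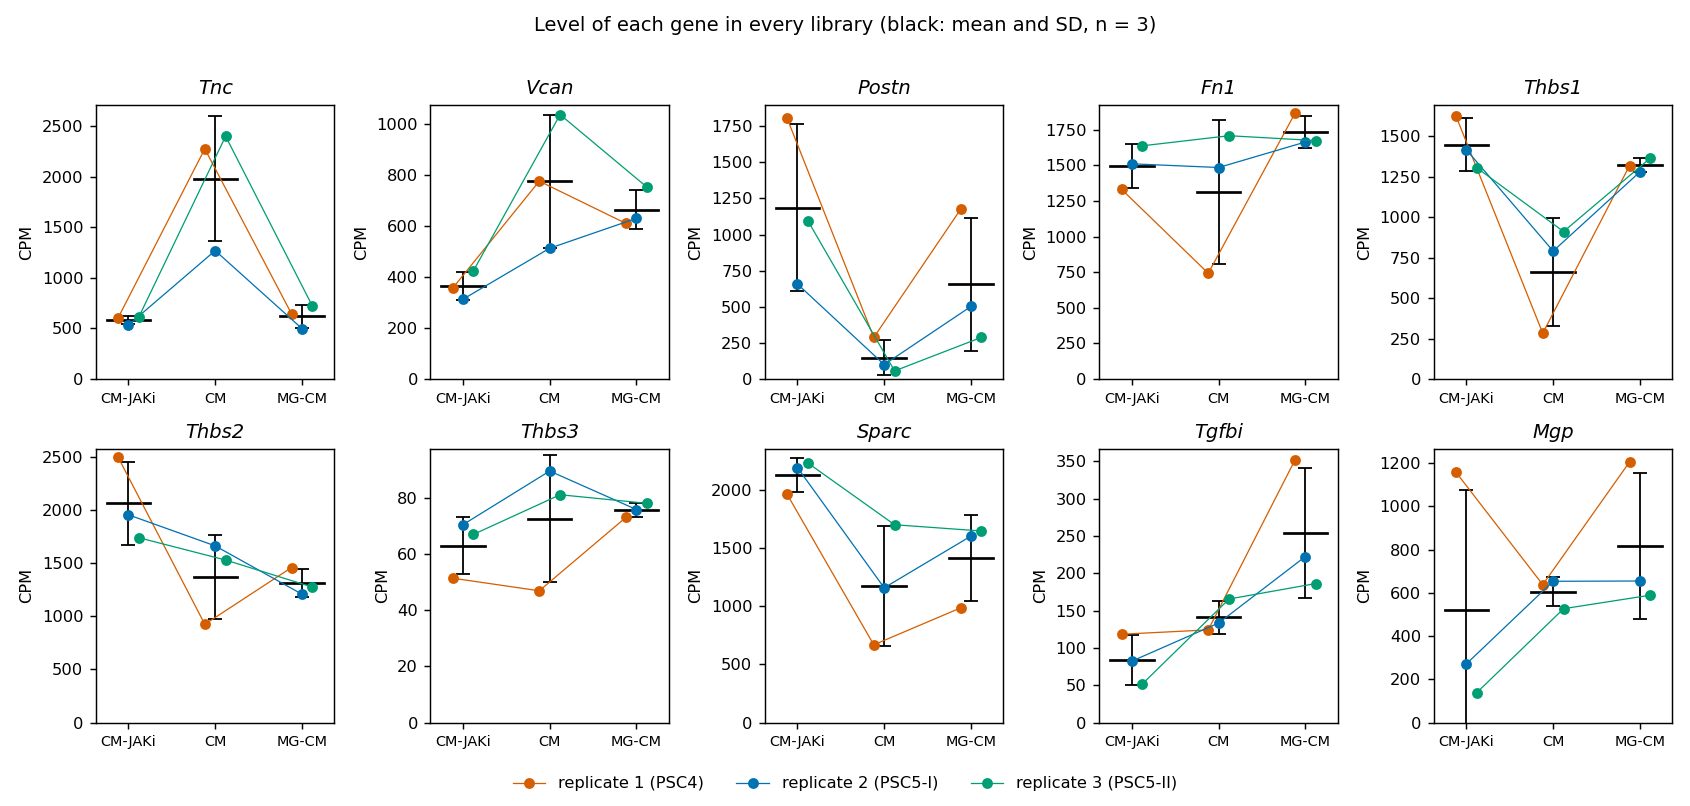
Level of each of the 10 genes in CPM (vertical axis, linear, from 0) by medium, with CM-JAKi left, CM in the middle and MG-CM right. Points are libraries, marked by replicate number, and bars show the mean and SD of 3 libraries; the lower SD bar of Mgp in CM-JAKi is drawn only to 0. Tnc is high in CM alone, at 1268 to 2398 CPM, and Postn is low there, at 56.4 to 288 CPM.

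Tenascin-C, a hexameric glycoprotein of wounds and tumour stroma, was high in tumour organoid medium without the inhibitor and lower in both other media. Tnc had 603, 534 and 613 CPM in CM-JAKi, 2273, 1268 and 2398 CPM in CM, and 644, 498 and 721 CPM in MG-CM, in the order of replicates 1, 2 and 3. Every CM library lay above every other library, and the CM-JAKi and MG-CM libraries overlapped. Tnc rose in CM against MG-CM, by 1.67 ± 0.24 on the log2 scale (SE), or 3.19-fold between the means, with an adjusted p of 0.0099 by edgeR's quasi-likelihood test with Benjamini-Hochberg adjustment. It fell in CM-JAKi against CM by the same test, with a log2 change of -1.76 ± 0.24 and an adjusted p of 0.0029. Between CM-JAKi and MG-CM the log2 difference was -0.09, with a 95% interval of -0.63 to 0.45 and an adjusted p of 0.950. Without MG-CM replicate 2 the adjusted p of CM against MG-CM was 0.0517, while the fall in CM-JAKi kept its call without any single library. In bulk RNA a difference can come from fewer cells of a type or from less RNA per cell, and the 2 cannot be told apart here.

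Periostin, which binds collagen, tenascin-C and integrins and promotes collagen cross-linking, had its lowest levels in that medium. Postn had 1806, 658 and 1096 CPM in CM-JAKi, 288, 99.9 and 56.4 CPM in CM, and 1174, 502 and 288 CPM in MG-CM. Each CM library was lower than each CM-JAKi library and than each MG-CM library, the highest CM value coming within 1 CPM of the lowest MG-CM one. Postn rose in CM-JAKi against CM by 3.00 ± 0.73 on the log2 scale, 8.02-fold between the means, with an adjusted p of 0.0246 by edgeR's quasi-likelihood test. That call was lost without CM replicate 2 (adjusted p = 0.0714), CM replicate 3 (0.0571), CM-JAKi replicate 1 (0.0525) or CM-JAKi replicate 3 (0.0523). In CM against MG-CM the log2 difference was -2.15 ± 0.71 with an adjusted p of 0.0895. Within the replicate numbers the log2 differences of that comparison were close to each other, at -2.03, -2.33 and -2.35, and with the replicate number as a block the difference was -2.22 with an adjusted p of 0.0069. The spread of Postn within a medium was wide, since its highest library was 2.74 times its lowest in CM-JAKi, 5.10 times in CM and 4.07 times in MG-CM. Between CM-JAKi and MG-CM the log2 difference was 0.86 ± 0.68, with an adjusted p of 0.773. The 7 endothelial markers measured summed to 9.21 to 17.1 CPM in CM-JAKi, 3.31 to 4.93 CPM in CM and 6.52 to 8.97 CPM in MG-CM. Pecam1, Cdh5 and Erg among them were under 1 CPM in every library. Of the 6 that passed the filter, edgeR called 2, Emcn and Tek, higher in CM-JAKi against CM, beside 10.1% of all genes. The median log2 difference of the 6 was -0.17 there. With the replicate block Vwf (-0.86), Pecam1 (-0.49), Erg (-0.26) and Kdr (-0.23) had negative differences. The part of these markers in the values of Postn was not tested.

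Versican, whose hyaluronan-rich coats loosen cell attachment, fell with the inhibitor. Vcan had 356, 313 and 424 CPM in CM-JAKi, 776, 513 and 1038 CPM in CM, and 610, 630 and 753 CPM in MG-CM. The CM-JAKi libraries were the lowest 3 of the 9, whereas CM and MG-CM overlapped. Vcan fell in CM-JAKi against CM, with a log2 change of -1.09 ± 0.24 and an adjusted p of 0.0163 by edgeR's quasi-likelihood test, a call lost without CM-JAKi replicate 2 (0.0697). In CM against MG-CM its log2 difference was 0.22, with a 95% interval of -0.31 to 0.76. In CM-JAKi against MG-CM the log2 difference was -0.87 ± 0.24 with an adjusted p of 0.174, and 0.0237 with the replicate block, which called it lower.

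Thrombospondins are multimeric calcium-binding glycoproteins. Thbs1 and Thbs2 form trimers that bind CD47 and inhibit the growth of vessels, and thrombospondin-1 can also activate latent TGF-beta. Thbs1 had 1624, 1416 and 1305 CPM in CM-JAKi, 283, 790 and 911 CPM in CM, and 1318, 1279 and 1365 CPM in MG-CM. All 3 CM libraries were below the other 6, and CM replicate 1 was far below the rest of CM. The log2 difference was 1.13 ± 0.35 in CM-JAKi against CM with an adjusted p of 0.0557, and 0.0437 with the replicate block. It was -0.998 ± 0.35 in CM against MG-CM with an adjusted p of 0.107, and 0.0768 with the block.

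CM replicate 1, the PSC4 culture, set much of the spread of Thbs1. Within replicates 1, 2 and 3 the log2 differences of Thbs1 were 2.52, 0.84 and 0.52 in CM-JAKi against CM, and -2.22, -0.70 and -0.58 in CM against MG-CM. Without CM replicate 1 Thbs1 was called in both comparisons, with an adjusted p of 0.0129 in CM-JAKi against CM and 0.0390 in CM against MG-CM. A call in CM-JAKi against CM was also made without CM replicate 3 (0.0417). The difference between PSC4 and PSC5 in the log2 change of CM-JAKi against CM was 1.84 ± 0.21, with an adjusted p of 0.0267 for the interaction in edgeR's quasi-likelihood test. Over all genes kept, 0.345% had a larger and 0.022% a smaller log2 change in PSC4 in that comparison at this threshold. Larger and smaller here follow the signed log2 scale, on which a deeper fall counts as smaller. In CM against MG-CM the same difference for Thbs1 was -1.58 ± 0.21 with an adjusted p of 0.0507, beside 0.022% larger and 0.206% smaller over all genes, and in CM-JAKi against MG-CM 0.0% of genes were called either way by edgeR, with 526 at an unadjusted p under 0.05. PSC4 has 1 library in each medium, and its spread is taken to be that of PSC5. The same library was the lowest of the 3 CM libraries for Fn1, Sparc, Thbs1, Thbs2, Thbs3 and Tgfbi, and by edgeR only Thbs1 among the 10 genes passed the interaction test in any comparison. DESeq2's interaction test called more of them. Thbs1, Fn1, Thbs2 and Thbs3 were called by it in CM against MG-CM (adjusted p of up to 0.0086). All had a lower signed log2 difference in PSC4 than in PSC5, beside 1.2% of genes larger and 2.14% smaller in PSC4. In replicate 1 (PSC4) that difference was -2.22 for Thbs1, -1.33 for Fn1, -0.66 for Thbs2 and -0.64 for Thbs3. In CM-JAKi against CM DESeq2 called Thbs1, Thbs2, Fn1 and Mgp, all larger in PSC4 (adjusted p of up to 0.0344), beside 1.76% larger and 0.876% smaller. In CM-JAKi against MG-CM it called 0 of the 10, beside 0.0765% and 0.085%.

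Thbs2 had 2496, 1953 and 1737 CPM in CM-JAKi, 923, 1660 and 1528 CPM in CM, and 1457, 1206 and 1273 CPM in MG-CM. The CM-JAKi libraries were the highest 3 of the 9, though replicate 3 exceeded the highest CM library by only a small margin. In CM-JAKi the log2 difference was 0.59 ± 0.23 against CM (adjusted p = 0.104) and 0.65 ± 0.23 against MG-CM (adjusted p = 0.314). Thbs3, a pentameric thrombospondin best known from cartilage and bone, had 51.5, 70.6 and 67.1 CPM in CM-JAKi, 47.0, 89.7 and 81.3 CPM in CM, and 73.2, 76.0 and 78.2 CPM in MG-CM. CM overlapped both other media, and the 95% interval of the log2 difference of Thbs3 in CM against MG-CM ran from -0.56 to 0.44. Every CM-JAKi library was below every MG-CM library, with a log2 difference of -0.27 and an adjusted p of 0.783 by edgeR. Without replicate 1, edgeR called Thbs3 lower in CM-JAKi against CM, with an adjusted p of 0.0188 with the block and 0.0341 without it.

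SPARC, a collagen-binding glycoprotein that assists procollagen handling, had its highest levels with the inhibitor. Sparc had 1965, 2194 and 2233 CPM in CM-JAKi, 668, 1159 and 1702 CPM in CM, and 986, 1604 and 1648 CPM in MG-CM. Every CM-JAKi library lay above all 6 others, and CM and MG-CM overlapped, with replicate 1 the lowest in all 3 media. The log2 difference in CM-JAKi against CM was 0.86 ± 0.32 with an adjusted p of 0.0948. With the replicate block it was 0.96 with an adjusted p of 0.0128, and without CM replicate 3 the unblocked adjusted p was 0.0330. Among the stellate markers, Col1a1 averaged 1064 ± 92.1 CPM in CM-JAKi and 636 ± 137 CPM in CM, and Col1a2 859 ± 118 CPM in CM-JAKi and 349 ± 87.2 CPM in CM (SD, n = 3 each). Both of these collagen I genes rose by edgeR's quasi-likelihood test, with adjusted p-values of 0.0147 and 0.0047, and the part of the stellate markers in the values of Sparc was not tested.

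TGFBI is a matrix adapter that binds collagens and integrins and is named for its induction by TGF-beta. Tgfbi had 118, 82.3 and 51.6 CPM in CM-JAKi, 124, 133 and 166 CPM in CM, and 352, 222 and 186 CPM in MG-CM. The 3 media did not overlap, MG-CM being highest and CM-JAKi lowest, a stepwise order that none of the other 9 genes showed. The margin between CM-JAKi and CM was small, at 118 and 124 CPM in replicate 1. Within replicates 1, 2 and 3 the log2 difference was -0.07, -0.70 and -1.68 in CM-JAKi against CM. It was -1.50, -0.74 and -0.17 in CM against MG-CM, so the steps were largest in different replicates. The share of all genes with such an order was not worked out. The log2 difference in CM-JAKi against MG-CM was -1.59 ± 0.32 with an adjusted p of 0.0661. The replicate block gave -1.60 with an adjusted p of 0.0332 and called Tgfbi lower, as did leaving out CM-JAKi replicate 1 (0.0420). The step in CM-JAKi against CM was -0.75 ± 0.32 (adjusted p = 0.132, and 0.0496 without CM-JAKi replicate 1). In CM against MG-CM it was -0.85 ± 0.32 (adjusted p = 0.122 by edgeR, and 0.0402 by DESeq2).

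Fibronectin, the scaffold on which other matrix proteins assemble, passed the test in no comparison. Fn1 had 1331, 1510 and 1636 CPM in CM-JAKi, 742, 1484 and 1707 CPM in CM, and 1865, 1663 and 1673 CPM in MG-CM. CM replicate 1 stood at the bottom of the 9, CM replicate 2 lay below the MG-CM values and CM replicate 3 within them. The log2 difference of Fn1 was 0.19 in CM-JAKi against CM (95% interval -0.41 to 0.78) and -0.40 in CM against MG-CM (95% interval -1.001 to 0.195), with adjusted p-values of 0.656 and 0.362. Average differences larger than about 1 on the log2 scale lie outside both intervals, which does not hold for each replicate. Within replicates 1, 2 and 3 the log2 difference in CM against MG-CM was -1.33, -0.16 and 0.03. The difference between PSC4 and PSC5 there was -1.27 ± 0.21. Every CM-JAKi library was below every MG-CM library, with a log2 difference of -0.22 and an adjusted p of 0.874 by edgeR's quasi-likelihood test.

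MGP, the calcification inhibitor, had a wide spread among the CM-JAKi libraries. Mgp had 1158, 271 and 138 CPM in CM-JAKi, 638, 653 and 527 CPM in CM, and 1205, 655 and 589 CPM in MG-CM. Its CM libraries were close together, whereas in CM-JAKi its highest library was 8.37 times its lowest. Within replicates 1, 2 and 3 the log2 difference in CM-JAKi against CM was 0.86, -1.27 and -1.93, higher in PSC4 and lower in both PSC5 cultures. The interaction of line and medium for Mgp was 2.39 ± 0.55 with an adjusted p of 0.209 by edgeR's quasi-likelihood test, and 2.37 with an adjusted p of 0.0344 by DESeq2, so the call depends on the tool. Without CM-JAKi replicate 1 Mgp was called lower in CM-JAKi against CM (0.0316), against an adjusted p of 0.848 with all libraries. Replicate 3 had the lowest Mgp and the highest summed mesothelial markers in each medium. Those 5 markers summed to 6.87, 22.7 and 54.8 CPM in CM-JAKi, 2.52, 7.39 and 65.7 CPM in CM, and 3.67, 4.84 and 15.7 CPM in MG-CM, with Upk3b, Lrrn4 and Upk1b among them under 1 CPM in every library. Their part in the values of Mgp was not tested.

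Counted over the 10 genes, edgeR's quasi-likelihood test called 1 higher and 0 lower in CM against MG-CM, where 4.85% of all genes kept were called higher and 5.39% lower. Before adjustment, at an edgeR p under 0.05, 1 was higher and 3 were lower (Postn, Thbs1 and Tgfbi), beside 13.9% and 14.4% of all genes. In CM-JAKi against CM it called 1 higher and 2 lower, beside 10.1% and 8.93% of all genes. Before adjustment 4 were higher, Sparc, Thbs1 and Thbs2 with Postn, and 3 were lower, Tgfbi with Tnc and Vcan, beside 18.2% and 16.2% of all genes. In CM-JAKi against MG-CM it called 0 in either direction, beside 0.286% higher and 0.72% lower over all genes. Before adjustment 1 was higher, Thbs2, and 2 were lower, Vcan and Tgfbi, beside 5.36% and 5.31% of all genes, and DESeq2 called the 2 lower ones. With numbers this small the counts are a description of the 10 genes. The comparisons that involve CM share its 3 libraries, and so do those with CM-JAKi or MG-CM share theirs, so the changes in different comparisons are not separate evidence. The median log2 difference of the 10 genes was -0.33 in CM against MG-CM, -0.01 in CM-JAKi against CM and -0.15 in CM-JAKi against MG-CM, each beside a median of 0.01 over all genes.

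With the replicate number as a block the counts were 1 higher and 1 lower in CM against MG-CM (11.6% and 12.8% of all genes), 3 higher and 2 lower in CM-JAKi against CM (18.6% and 15.6%), and 0 higher and 2 lower in CM-JAKi against MG-CM (1.85% and 2.4%). DESeq2 called 1 higher and 3 lower in CM against MG-CM (8.88% and 9.63% of genes), 4 higher and 2 lower in CM-JAKi against CM (13.4% and 12.7%), and 0 higher and 2 lower in CM-JAKi against MG-CM (1.51% and 2.4%). The CPM ranges of the groups did not overlap for 1 higher and 3 lower genes in CM against MG-CM, beside 16.0% and 16.8% of all genes. They did not overlap for 4 higher and 3 lower in CM-JAKi against CM, beside 20.1% and 18.3%. In CM-JAKi against MG-CM, 2 higher and 4 lower genes did not overlap, beside 8.87% and 8.24%.

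**Figure D2:**
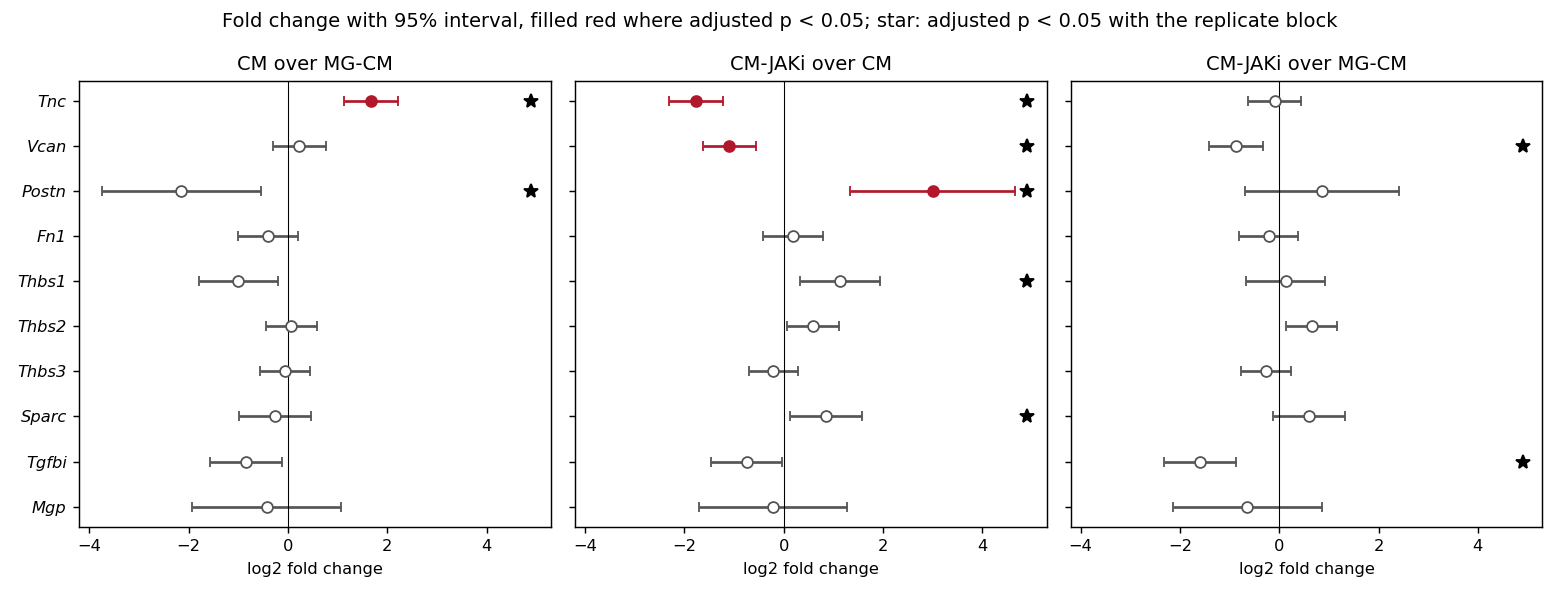
Log2 difference of each of the 10 genes in the 3 comparisons, with bars for the 95% interval and a line at 0; filled red points passed an adjusted p under 0.05, and stars mark those that passed it with the replicate block. Tnc is at 1.67 in CM against MG-CM and at -1.76 in CM-JAKi against CM, and Postn at -2.15 and 3.00 in the same comparisons.

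**Figure D3:**
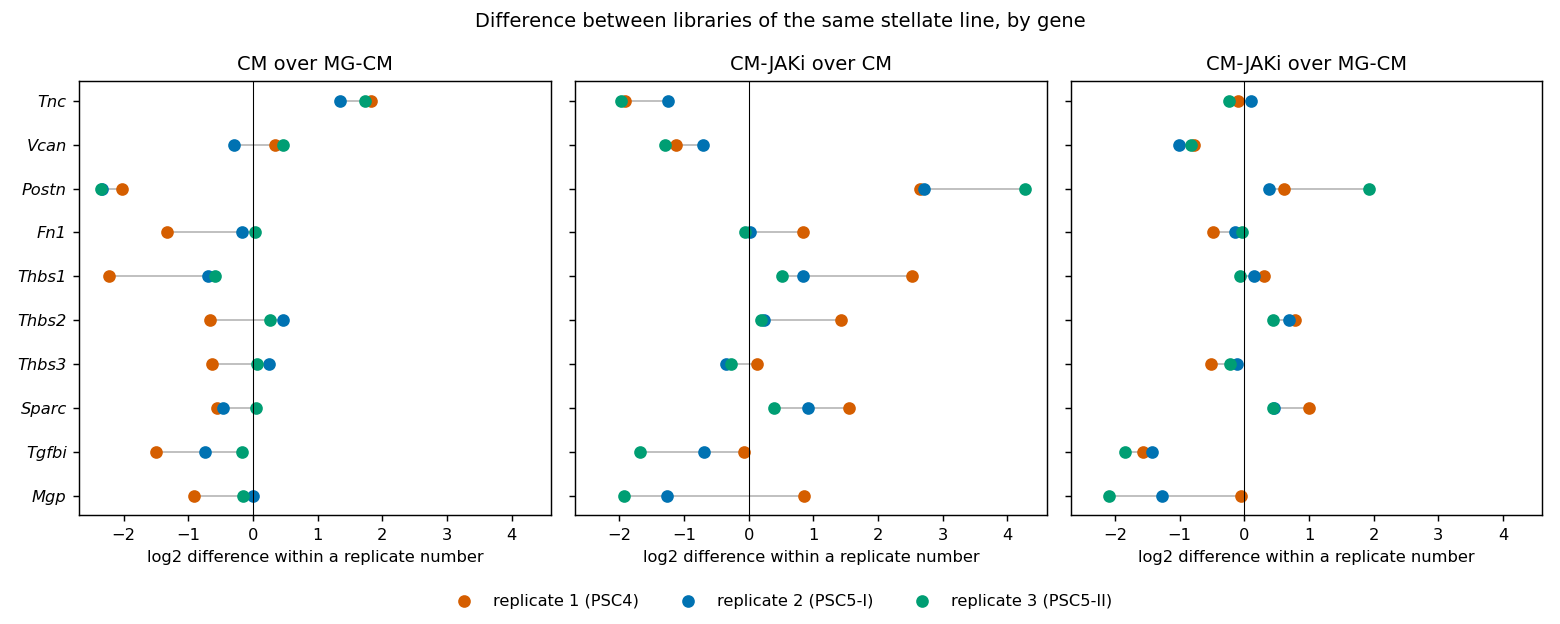
Log2 difference within each replicate number (PSC4, PSC5-I, PSC5-II) for each of the 10 genes, with a panel for each of the 3 comparisons and a grey line from the lowest to the highest point. In CM-JAKi against CM the 3 points of Tnc range from -1.97 to -1.25, those of Thbs1 from 0.52 to 2.52 and those of Mgp from -1.93 to 0.86.

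Per kilobase of transcript, which allows genes to be set side by side, the order of the levels changed with the medium. Lengths were those of the principal GENCODE transcript, and Vcan was not placed because its coding transcripts range from 294 to 12427 bases. Some placed genes also had coding transcripts of unlike length, such as 671 to 8315 bases for Fn1, 435 to 3190 for Thbs3 and 655 to 3205 for Postn. Their places hold for the principal transcript only. In CM-JAKi the order from the top was Sparc (926 ± 63.0 CPM per kilobase, SD, n = 3), Mgp (847 ± 898), Postn (372 ± 182), Thbs2 (350 ± 66.3), Thbs1 (248 ± 27.7), Fn1 (180 ± 18.4), Tnc (82.1 ± 6.06), Tgfbi (31.0 ± 12.3) and Thbs3 (19.8 ± 3.19). Sparc and Mgp, Mgp and Postn, and Postn and Thbs2 did not differ beyond their spread there. In CM the order was Mgp (982 ± 112), Sparc (511 ± 225), Tnc (279 ± 87.2), Thbs2 (232 ± 66.6), Fn1 (158 ± 60.8), Thbs1 (113 ± 57.0), Tgfbi (52.0 ± 8.005), Postn (46.4 ± 38.5) and Thbs3 (22.8 ± 7.09). From Sparc downward, neighbours in CM lay within each other's spread. In MG-CM Mgp (1323 ± 548) and Sparc (614 ± 161) came before Thbs1 (226 ± 7.30), Thbs2 (223 ± 22.0), Fn1 (209 ± 13.7) and Postn (205 ± 145), which could not be separated, and Tgfbi (93.4 ± 32.1), Tnc (87.5 ± 15.9) and Thbs3 (23.8 ± 0.783) came last. By the means, Tnc held rank 7 of 9 in CM-JAKi, rank 3 in CM and rank 8 in MG-CM. Postn held rank 3 in CM-JAKi, rank 8 in CM and rank 6 in MG-CM. These ranks do not separate neighbours that lay within each other's spread, as Tnc and Tgfbi also did in MG-CM.

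Genes with the most similar profile over the 9 libraries were found by the root mean square difference between mean-centred log2 CPM profiles. Nearest to Tnc were Hif1a, the oxygen-regulated transcription factor (0.148), and Slc16a1, a lactate transporter (0.161), against a spread of 0.836 of Tnc itself. Nearest to Thbs1 were Mertk (0.134) and Fhl2 (0.181), against its own spread of 0.730. Vcan had Timp1, an inhibitor of matrix metalloproteinases, nearest at 0.204, against a spread of 0.532. Postn had Agt and Lrrc17 nearest, at 0.625 and 0.687 against its own spread of 1.57. For the other 6 genes the nearest were Slc38a9 for Fn1, Cdc42ep3 for Sparc, Phip for Thbs2, Dpp9 for Thbs3, P4ha3 for Tgfbi and Il16 for Mgp. Among the 10 genes, the closest pair was Fn1 and Thbs3 (0.237) and the farthest was Tnc and Postn (2.28). The libraries share groups, lines and scaling, and these values are a description.

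Relatives of the 10 genes by sequence were measured too. Of 19 homologues, 12 passed the filter, and 1 rose and 1 fell in CM against MG-CM, while 3 rose and 1 fell in CM-JAKi against CM and 0 were called in CM-JAKi against MG-CM, all by edgeR's quasi-likelihood test. With the block the counts were 2 higher and 4 lower, 4 and 3, and 0 and 1 in the same order. For this and the following lists, the shares over all genes by edgeR were 4.85% higher and 5.39% lower, 10.1% and 8.93%, and 0.286% and 0.72%. With the block these shares were 11.6% and 12.8%, 18.6% and 15.6%, and 1.85% and 2.4%. Smoc2, a SPARC-related modular calcium-binding protein, averaged 11.4 ± 5.74 CPM in CM-JAKi and 0.778 ± 0.570 CPM in CM (SD, n = 3 each) and rose by 3.86 ± 0.63 on the log2 scale (adjusted p = 0.0057), a call kept without any single library. It was at 4.45 ± 2.05 CPM in MG-CM, and its fall in CM against MG-CM (adjusted p = 0.0356) was lost in 6 of the 9 fits without 1 library. Fstl1, a secreted SPARC-family glycoprotein, rose to 1046 ± 62.6 CPM in CM-JAKi, against 543 ± 200 CPM in CM (adjusted p = 0.0288), and lost that call without CM replicate 1 or 2 or CM-JAKi replicate 2 or 3 (adjusted p of 0.0648 to 0.0946).

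Of 18 receptor genes, among them integrins, syndecans and CD47, 16 passed the filter. In CM against MG-CM 1 rose and 0 fell, in CM-JAKi against CM 1 rose and 3 fell, and in CM-JAKi against MG-CM 0 were called. With the block these were 5 higher and 1 lower, 2 and 4, and 1 and 0. Itga5, the alpha chain of the main fibronectin receptor, averaged 80.5 ± 2.15 CPM in CM-JAKi, 144 ± 31.1 CPM in CM and 95.7 ± 9.66 CPM in MG-CM (SD, n = 3 each). It fell in CM-JAKi against CM by edgeR's quasi-likelihood test (log2 change -0.84 ± 0.15, adjusted p = 0.0075), without exception when 1 library was left out, and rose in CM against MG-CM (adjusted p = 0.0388), a call lost in 7 of the 9 such fits. Itga8, whose integrin binds fibronectin, tenascin-C and nephronectin, rose to 18.4 ± 8.54 CPM in CM-JAKi, against 2.40 ± 0.628 CPM in CM, by 2.94 ± 0.46 on the log2 scale (adjusted p = 0.0050). Sdc1, a heparan sulphate proteoglycan that acts as a co-receptor, fell to 169 ± 50.8 CPM in CM-JAKi, against 410 ± 148 CPM in CM (adjusted p = 0.0163), and lost the call without CM-JAKi replicate 2 (0.0677) or 3 (0.0564).

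Among 15 of 17 binding and assembly partners that passed the filter, 2 rose and 1 fell in CM against MG-CM, 2 rose and 3 fell in CM-JAKi against CM, and 0 were called in CM-JAKi against MG-CM. With the block the first 2 counts were 4 higher and 5 lower, and 7 and 4. Has2, which makes the hyaluronan that versican binds, averaged 19.5 ± 6.43 CPM in CM-JAKi, 116 ± 45.7 CPM in CM and 43.3 ± 5.80 CPM in MG-CM (SD, n = 3 each). Its fall in CM-JAKi against CM was -2.57 ± 0.32 on the log2 scale (adjusted p = 0.0019) and was called without any single library. Its rise in CM against MG-CM (adjusted p = 0.0245) was lost without any 1 of the 3 MG-CM libraries (0.0576 to 0.0966). Fbln2, a fibulin that binds fibronectin and versican, fell to 1146 ± 100 CPM in CM-JAKi, against 2261 ± 275 CPM in CM (adjusted p = 0.0028), also without exception. Matn2, a matrix adapter, rose to 187 ± 54.1 CPM in CM-JAKi, against 75.4 ± 20.5 CPM in CM (adjusted p = 0.0149, and 0.0589 without CM-JAKi replicate 2). Bmp1, the procollagen proteinase, rose to 255 ± 35.4 CPM in CM, against 161 ± 21.0 CPM in MG-CM (adjusted p = 0.0210), and lost the call without MG-CM replicate 2 (0.0916) or 3 (0.0624).

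The 11 enzymes that modify these proteins, among them the vitamin K cycle enzymes used by MGP and the chondroitin sulphate enzymes used by versican, all passed the filter. None was called in CM against MG-CM or CM-JAKi against MG-CM by edgeR, and 1 rose and 2 fell in CM-JAKi against CM. With the block the counts were 1 higher and 0 lower in CM against MG-CM, 1 and 3 in CM-JAKi against CM, and 0 and 1 in CM-JAKi against MG-CM. The 2 that fell act early in the making of chondroitin sulphate chains, and Xylt1 not of these chains alone. Xylt2, Chsy1, Chpf and Fam20b of the same list were not called in CM-JAKi against CM. Their log2 differences there were 0.07, 0.12, 0.04 and 0.13. Csgalnact1 averaged 41.8 ± 23.0 CPM in CM-JAKi and 115 ± 47.0 CPM in CM (adjusted p = 0.0381), and Xylt1 averaged 5.17 ± 1.74 CPM in CM-JAKi and 13.8 ± 4.67 CPM in CM (adjusted p = 0.0331). Vkorc1, which recycles vitamin K, rose to 34.8 ± 4.91 CPM in CM-JAKi, against 24.0 ± 0.793 CPM in CM (adjusted p = 0.0432). These 3 calls were lost in 5 or 6 of the 9 fits that left out 1 library, with adjusted p-values of up to 0.157.

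Proteases that cut these proteins included metalloproteinases, ADAMTS enzymes and plasminogen activators. All 15 passed the filter, and 2 rose and 1 fell in CM against MG-CM, 3 rose and 2 fell in CM-JAKi against CM, and 1 rose and 0 fell in CM-JAKi against MG-CM. With the block the first 2 counts were 5 higher and 4 lower, and 6 and 4. Mmp3, stromelysin-1, averaged 290 ± 124 CPM in CM-JAKi, 467 ± 44.2 CPM in CM and 47.0 ± 22.7 CPM in MG-CM (SD, n = 3 each). It rose in CM against MG-CM by 3.31 ± 0.42 on the log2 scale (adjusted p = 0.0075), in every fit that left out 1 library. It was also the only 1 of the 15 called in CM-JAKi against MG-CM, by 2.63 ± 0.40 (adjusted p = 0.0239), a call lost without MG-CM replicate 2 (0.0970), MG-CM replicate 3 (0.0938) or CM-JAKi replicate 2 (0.0917). Adamts1, which cleaves versican, averaged 281 ± 35.3 CPM in CM-JAKi, 108 ± 55.05 CPM in CM and 389 ± 18.1 CPM in MG-CM. It fell in CM against MG-CM by edgeR's quasi-likelihood test (adjusted p = 0.0165, and 0.0666 without MG-CM replicate 2) and rose in CM-JAKi against CM (adjusted p = 0.0243), where the call was lost without CM-JAKi replicate 1 (0.0505), CM-JAKi replicate 2 (0.0802) or CM replicate 3 (0.0575). Mmp9, a gelatinase, was low but rose to 7.06 ± 1.68 CPM in CM-JAKi, against 2.13 ± 0.176 CPM in CM (adjusted p = 0.0087), in every such fit.

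TGF-beta, which induces several of these matrix genes, was followed through 16 genes, all of which passed the filter. In CM against MG-CM 2 rose and 3 fell, in CM-JAKi against CM 4 rose and 4 fell, and in CM-JAKi against MG-CM 0 were called. With the block, 4 were higher and 4 lower in CM against MG-CM. The ligand Tgfb3 averaged 34.7 ± 9.28 CPM in CM-JAKi, 14.98 ± 1.28 CPM in CM and 44.3 ± 8.27 CPM in MG-CM (SD, n = 3 each). It fell in CM against MG-CM by edgeR's quasi-likelihood test (log2 change -1.56 ± 0.20, adjusted p = 0.0077) and rose in CM-JAKi against CM (1.21 ± 0.20, adjusted p = 0.0058), both without exception when 1 library was left out. Tgfb2 was also lowest in CM, at 12.9 ± 8.88, 2.60 ± 0.407 and 8.28 ± 1.43 CPM in the same order of media. Tgfb1 ran the other way, at 14.8 ± 4.14, 24.9 ± 7.15 and 14.5 ± 2.13 CPM. Its adjusted p by edgeR was 0.0797 in CM against MG-CM and 0.0627 in CM-JAKi against CM, and 0.0043 and 0.0024 with the block. Ctgf, a matricellular target of TGF-beta, averaged 39.5 ± 4.95 CPM in CM-JAKi, 12.9 ± 5.07 CPM in CM and 39.2 ± 11.3 CPM in MG-CM. It rose in CM-JAKi against CM by edgeR's quasi-likelihood test (adjusted p = 0.0122) in every fit without 1 library, and fell in CM against MG-CM (adjusted p = 0.0215), a call lost without MG-CM replicate 1 (0.0556) or 2 (0.0874). Skil, a repressor of SMAD signalling that TGF-beta itself induces, rose in CM, at 123 ± 36.7 CPM in CM and 56.3 ± 4.58 CPM in MG-CM (adjusted p = 0.0136, and 0.0696 without MG-CM replicate 2).

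The JAK-STAT response, all 17 genes of which passed the filter, had 7 rises and 1 fall in CM against MG-CM, 0 rises and 16 falls in CM-JAKi against CM, and 0 rises and 6 falls in CM-JAKi against MG-CM. With the block, 10 rose and 1 fell in CM against MG-CM, and 13 fell in CM-JAKi against MG-CM. Isg15, an interferon-induced ubiquitin-like protein, averaged 11.7 ± 1.72 CPM in CM-JAKi, 188 ± 57.7 CPM in CM and 51.3 ± 16.7 CPM in MG-CM (SD, n = 3 each). Irf9, an interferon regulatory factor, averaged 22.9 ± 1.96 CPM in CM-JAKi and 161 ± 19.7 CPM in CM (adjusted p = 0.00015 by edgeR's quasi-likelihood test), and 95.7 ± 26.2 CPM in MG-CM. Irf9 fell in CM-JAKi against MG-CM as well, with a log2 change of -2.06 ± 0.19 (adjusted p = 0.0023), a call kept without any single library.

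**Figure D4:**
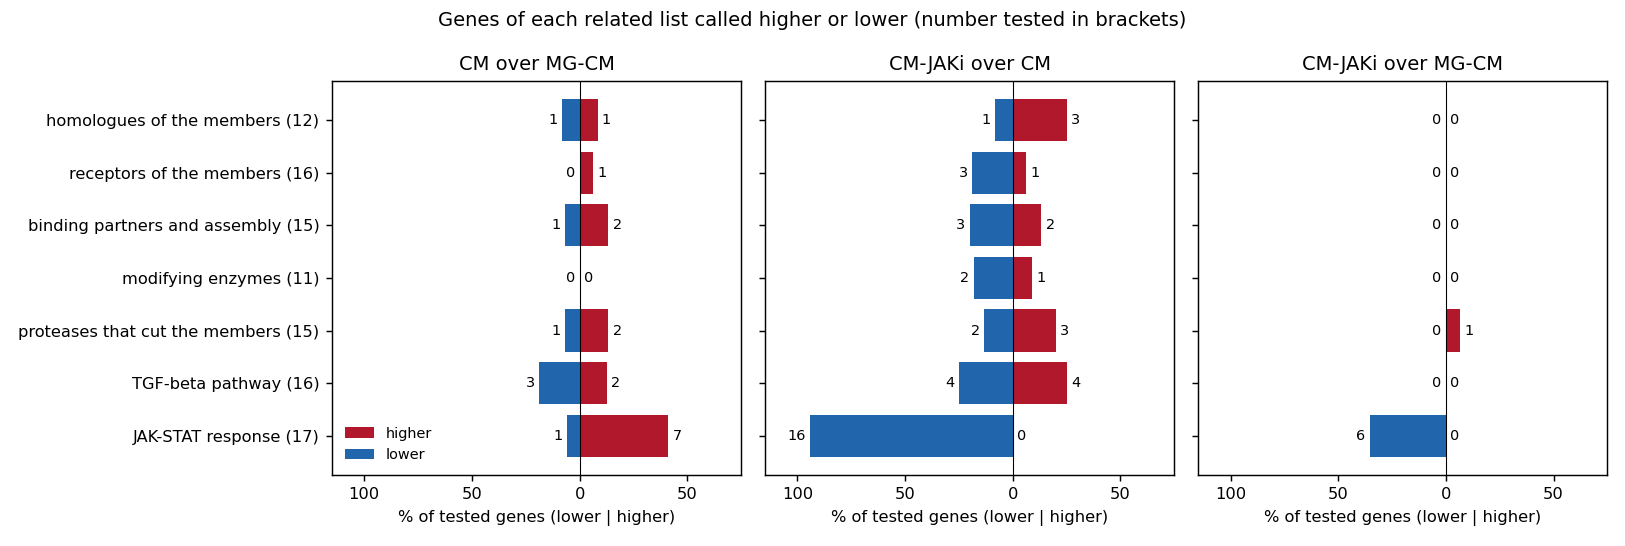
Share of the tested genes of each list, in percent, called higher (right of 0) and lower (left of 0) in each comparison, with the number of genes called beside each bar, at an adjusted p under 0.05 in edgeR's quasi-likelihood test. The JAK-STAT list stands out in CM-JAKi against CM with 16 lower and 0 higher, while the other lists have calls in both directions there or few calls.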

How the data were processed

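Total RNA depleted of ribosomal RNA was sequenced from 9 cultures on an Illumina instrument, with stranded libraries, per the labels' protocols. The deposited values are expected counts per gene made by the authors, rounded to whole numbers and not scaled. Of tools, the submitters' processing notes list DESeq2, RSEM (1.2.29) and STAR (2.5.1b), and of builds mm9 and NCBIM37, with no roles given. The RefSeq and GENCODE tables used for promoters and lengths are of GRCm38, so no coordinate was carried between builds.

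The software was edgeR 4.0.16 in R 4.3.3, beside DESeq2 1.42.0 and limma 3.58.1 for alternatives. The filter was filterByExpr with a minimum count of 10 and a minimum total of 15, and scaling was by TMM. All 9 libraries entered a robust quasi-likelihood fit with a term per medium, and p-values were adjusted over the 13613 genes kept. Differences between lines were tested as an interaction with PSC4 against both PSC5 cultures. The prior count for log2 CPM was 2. The code was tested on simulated data.

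Libraries of the same replicate number share a line, and after removal of group means they correlated at 0.291 to 0.680 across genes (9 pairs), against -0.536 to 0.279 for different numbers (18 pairs). The number was entered as a block in an alternative fit. Replicates of a group differed by more than sampling noise (chi-square per degree of freedom 15.3 to 109).

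The 10 genes and the lists were chosen with earlier results of these data known. Named were all 10 genes, up to 3 genes of each list with the smallest p in each comparison, and the 2 nearest profiles of each gene among those whose mean log2 CPM reached 2, of which those that carry the description are printed. Cell-type markers were read as sums and counts. Alternatives were other scalings, no filter, DESeq2, limma-voom, non-robust estimation, only the groups compared, the block, a line term, and libraries or replicate numbers left out. Leaving out a replicate number without the block was added after seeing the data.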

Additional observations from a re-analysis of the deposited data

Results flagged for a closer look

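The response of Thbs1 to CM-JAKi against CM differed between the lines. The log2 change in PSC4 exceeded that in PSC5 by 1.84 ± 0.21, with an adjusted p of 0.0267 for the interaction by edgeR's quasi-likelihood test, and Thbs1 was higher in CM-JAKi in 3 of 3 replicate numbers. With RLE scaling the adjusted p was 0.0278, and by DESeq2 it was 2.1e-17. PSC4 is represented by 1 library per medium and had its own medium source, so line, medium source and a single culture cannot be told apart.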

How the results depend on the processing

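Over 30 results for single genes (10 genes in 3 comparisons) and 24 alternatives each, 636 of 720 values kept direction and side of the threshold, 49 newly passed it, 14 no longer passed and 21 changed sign. With the replicate number as a block, genes called higher and lower among the 10 were 1 and 1 in CM against MG-CM, 3 and 2 in CM-JAKi against CM, and 0 and 2 in CM-JAKi against MG-CM, the genes added being those given in the report, and it changed no other call among the 10. A line term gave 1 lower in CM against MG-CM, 3 higher and 3 lower in CM-JAKi against CM, Tgfbi being added to the lower ones (adjusted p = 0.0490), and 1 lower in CM-JAKi against MG-CM. DESeq2 gave 3 lower in CM against MG-CM, 4 higher in CM-JAKi against CM and 2 lower in CM-JAKi against MG-CM, and library size alone 2 higher in CM-JAKi against CM, where it moves the median of all genes by 0.10. With the block and without replicate 1, CM against MG-CM had 2 higher and 2 lower, CM-JAKi against CM 3 higher and 5 lower, and CM-JAKi against MG-CM 1 higher and 1 lower. With the block and without replicate 3, CM against MG-CM had 2 lower and CM-JAKi against CM 2 higher. Without the block, leaving out replicate 1 gave 2 lower in CM against MG-CM, 3 higher and 4 lower in CM-JAKi against CM, and 1 higher and 1 lower in CM-JAKi against MG-CM. Without replicate 2 or 3 and without the block, 0 were higher in CM against MG-CM and 0 in CM-JAKi against CM, where 1 and 0 were lower. Leaving out single libraries gave 0 to 1 higher and 0 to 2 lower in CM against MG-CM, 0 to 2 higher and 1 to 4 lower in CM-JAKi against CM, and 0 to 1 lower in CM-JAKi against MG-CM. Shares over all genes are given in this report only for the main fit, the block and DESeq2. The counts from the other fits have no such share beside them and only describe the 10 genes.

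The sign changes were all of small, uncalled log2 differences, and the cause was not tested. In CM against MG-CM, Thbs2 was at -0.0041 with library size alone, at -0.15 and -0.057 with the block and at -0.15 and -0.044 without it when replicate 2 or 3 was left out, and at -0.099 and -0.022 without CM replicate 2 or 3 (-0.099 to 0.28 over single libraries left out). Thbs3 was at 0.14 with and 0.15 without the block when replicate 1 was left out and at 0.17 without CM replicate 1 (-0.24 to 0.17), Sparc at 0.016 without CM replicate 1 (-0.63 to 0.016) and Vcan at -0.041 without CM replicate 3 (-0.041 to 0.45). In CM-JAKi against CM, Fn1 was at -0.013 with and -0.015 without the block when replicate 1 was left out and at -0.10 without CM replicate 1 (-0.10 to 0.41). Mgp was at 0.15 and 0.15 when replicate 2 or 3 was left out without the block, and at 0.090 and 0.23 without CM-JAKi replicate 2 or 3 (-1.57 to 0.23). In CM-JAKi against MG-CM, Tnc was at 0.0083 with the block and without replicate 3, and at 0.029 without MG-CM replicate 3 (-0.23 to 0.029). The interaction of Thbs1 in CM against MG-CM was -1.57 with RLE scaling (adjusted p = 0.0492) and -1.57 with DESeq2 (1.4e-12), both past the threshold. DESeq2 also passed the interaction of Fn1 (1.0e-08), Thbs2 (1.6e-05) and Thbs3 (0.0086) in CM against MG-CM, and of Thbs2 (3.7e-08), Fn1 (0.00083) and Mgp (0.0344) in CM-JAKi against CM, none of which passed in edgeR.

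Over all genes, the block called 1577 higher and 1748 lower in CM against MG-CM, 2529 and 2126 in CM-JAKi against CM, and 252 and 327 in CM-JAKi against MG-CM. DESeq2 called 1207 and 1309, 1816 and 1727, and 198 and 314. Without the block, edgeR called 660 and 734, 1369 and 1216, and 39 and 98. With 3 libraries per medium the widest 95% intervals in CM-JAKi against CM were those of Postn (1.34 to 4.67) and Mgp (-1.71 to 1.28).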
